A study of Homo sapiens with 18 samples.

Results

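Mediator, TFIID and the other factors that place RNA polymerase II (RNAPII) at a promoter comprise 56 genes here: 32 subunits of Mediator, 16 subunits of TFIID, TAF15, and 7 subunits of TFIIA, TFIIB, TFIIE and TFIIF. They were chosen by symbol and found by gene ID in the RNA-Seq files, where all 56 were among the 23604 genes listed and all 56 passed the filter on low counts. The cells were MCF10A-ErSrc, a human breast epithelial line that carries the v-Src oncoprotein fused to the ligand-binding part of the estrogen receptor, so that tamoxifen switches the kinase on. Cells without tamoxifen are called NT and tamoxifen-transformed cells TAM, and each received for 4 h either DMSO or triptolide (TPL, a dose labelled TPL-125nM), which binds the XPB ATPase of TFIIH. The 4 groups are NT, NT + TPL, TAM and TAM + TPL, each with 2 RNA-Seq libraries and 2 RNAPII ChIP samples, and all come from this single line, the engineered oncoprotein included. The ChIP data are 4 lists of RNAPII peaks that hold a transcription start site (TSS), 1 list for each group.

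Transcription by RNAPII starts when TFIID, built from the TATA-binding protein TBP and its associated factors (TAFs), binds promoter DNA with TFIIA. TFIIB then bridges TBP and the polymerase, TFIIF arrives with the polymerase, and TFIIE brings in TFIIH, whose XPB subunit opens the DNA. Mediator joins this assembly to factors bound at enhancers. Its head and middle modules touch the polymerase, its tail receives most activators, MED14 is the scaffold between them, and a separable kinase module (CDK8 or CDK19, cyclin C, MED12 or MED12L, MED13 or MED13L) can hold Mediator off the polymerase. TPL acts on the next factor in this chain, and the comparisons below ask whether the mRNAs of the remaining factors moved with TPL, and whether they did so alike in NT and TAM cells.

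A set of 6 members changed with TPL in both cell states and in all 22 alternative fits, and MED29 changed in both and in 19 of the 22 fits in TAM cells. The 120 bases upstream of the main TSS (hg19, 5′ to 3′ on the coding strand) are printed for 6 of these genes, whose changes were among those that held most widely across the fits. GTF2B lies at chr1:89357251-89357370 (minus strand), MED26 at chr19:16739016-16739135 (minus), MED29 at chr19:39881898-39882017 (plus), MED17 at chr11:93517328-93517447 (plus), MED22 at chr9:136214987-136215106 (minus) and TAF4 at chr20:60640938-60641057 (minus). Capitals mark letters of a TATA box, a CCAAT box, a GC box, an ETS core or an E-box, read on either strand. The letters searched stand beside each count in the next paragraph, and neighbouring matches may overlap.
GTF2B: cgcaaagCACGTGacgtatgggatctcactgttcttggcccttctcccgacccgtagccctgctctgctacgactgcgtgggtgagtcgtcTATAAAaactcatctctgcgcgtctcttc
MED26: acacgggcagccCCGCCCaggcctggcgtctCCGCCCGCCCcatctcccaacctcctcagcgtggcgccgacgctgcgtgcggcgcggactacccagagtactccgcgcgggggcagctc
MED29: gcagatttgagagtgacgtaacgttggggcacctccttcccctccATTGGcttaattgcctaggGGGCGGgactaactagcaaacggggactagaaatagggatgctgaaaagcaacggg
MED17: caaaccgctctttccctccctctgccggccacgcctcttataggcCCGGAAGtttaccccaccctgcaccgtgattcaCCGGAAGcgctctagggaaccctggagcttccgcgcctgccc
MED22: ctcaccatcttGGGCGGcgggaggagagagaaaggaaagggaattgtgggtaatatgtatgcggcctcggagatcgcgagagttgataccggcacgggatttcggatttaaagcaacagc
TAF4: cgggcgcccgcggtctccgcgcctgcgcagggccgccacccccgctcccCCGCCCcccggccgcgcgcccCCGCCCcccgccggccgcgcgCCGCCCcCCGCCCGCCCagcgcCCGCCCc

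GTF2B was the only member with a TATA box, the letters TATAAA, in this window (1 of 56, 1.8%, against 3.4% of 13316 protein-coding genes tested), and its window also held an E-box, the letters CACGTG, which 7.1% of members and 5.6% of all genes held. The GC box, GGGCGG, was found in 31 members (55.4% against 58.7%) and the CCAAT box in 12 (21.4% against 24.3%). The ETS core, CCGGAAG, was found in 14 members (25% against 11.6%), among them, in 2 copies, MED17. The window of TAF4 held GC boxes alone and was 94.2% G and C, where the median was 65.8% over members and 69.2% over all genes. These matches are descriptions of letters and were not tested.

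The 8 RNA-Seq libraries held between 7461309 and 8349448 expected counts. Fold changes below are log2 ratios of these counts from edgeR, and a gene is said to have risen or fallen where its p adjusted over all 16948 genes is at most 0.05. Levels are given in FPKM, fragments scaled to transcript length and to the reads mapped in the library. Both are relative to the rest of the library, and in these bulk samples fewer cells of a type and less RNA per cell cannot be told apart. Over all genes the median with TPL was 0.09 for NT cells and 0.05 for TAM cells on the log2 scale. All 8 breast epithelial markers were listed in the files, with a summed level of 1890 to 15010 FPKM per library and a mean sum of 14120 FPKM in NT cells, 10540 with TPL added, 3603 in TAM cells and 1965 with TPL added. KRT5 (mean 6013 FPKM in NT and 1308 in TAM cells) and KRT17 (6714 and 1481) made up most of this sum. With DMSO, CDH1, KRT8 and KRT14 were also lower in TAM cells. EPCAM (24.64 and 39.33), KRT18 (410.2 and 453.7) and TP63 (18.38 and 23.62) had higher means there. With TPL, the means of EPCAM and KRT8 were higher in both states, that of CDH1 only in TAM cells, and the rest lower. The part of these markers in the results below was not tested. The summed leukocyte list had a mean of 47.6 FPKM in NT cells, 84.5 with TPL added, 291.4 in TAM cells and 442.0 with TPL added. CD68, at 47.1 to 472.9 FPKM, made up nearly all of it, PTPRC reached at most 2.14 FPKM and CD3E 0.17, and the part of this list in the results below was not tested. Endothelial, fibroblast, neural and hepatocyte lists each summed to at most 6.23 FPKM in any library.

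With TPL, most of the initiation factors passed in neither direction, 41 of 56 in NT and 39 of 56 in TAM cells. Among those that passed, the same genes led in both states. GTF2B rose most, MED26 and MED29 also rose in both, and MED22, MED8, TAF4 and MED17 were among the 9 that fell in both. In NT cells, 4 of 56 members rose (7.14%, where 17.2% of all genes tested rose) and 11 fell (19.6%, where 19.8% of all genes fell). In TAM cells, 6 rose (10.7% against 14.3%) and 11 fell (19.6% against 18.6%). Leaving out 1 library changed the numbers called, among the members and over all genes alike, so both shares move with single libraries. Of the 4 risen in NT cells, 3 (75%) rose in TAM cells, which is 50% of the 6 risen there. Of the 11 fallen in each, 9 (81.8%) were shared, and 0 members rose in one cell state and fell in the other. The same overlap was not counted over all genes, so it does not set the members apart. The TPL comparisons in NT and in TAM cells use different libraries. The study's own thresholds are an adjusted p up to 0.001 together with 1.2 or more on the log2 scale. They were applied here to the edgeR fit, so the calls they left are not those of the study. GTF2B was the only member they left in either state. Of all genes, 1.22% rose and 2.71% fell by them in NT cells and 0.844% and 2.04% in TAM cells. Which direction held more members depended on the scaling. Upper quartile normalization moved the median of all genes to 0.31 and 0.29. With it 11 members rose and 9 fell in NT cells, where 4088 and 2625 of all 16948 genes did. In TAM cells 12 rose and 7 fell, where 3613 and 2298 of all genes did. Scaled to equal GAPDH (medians of −0.26 and −0.07), 3 rose and 15 fell in NT cells, where 1358 and 4381 of all genes did. In TAM cells 3 rose and 11 fell, where 1626 and 3056 of all genes did.

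**Figure D1:**
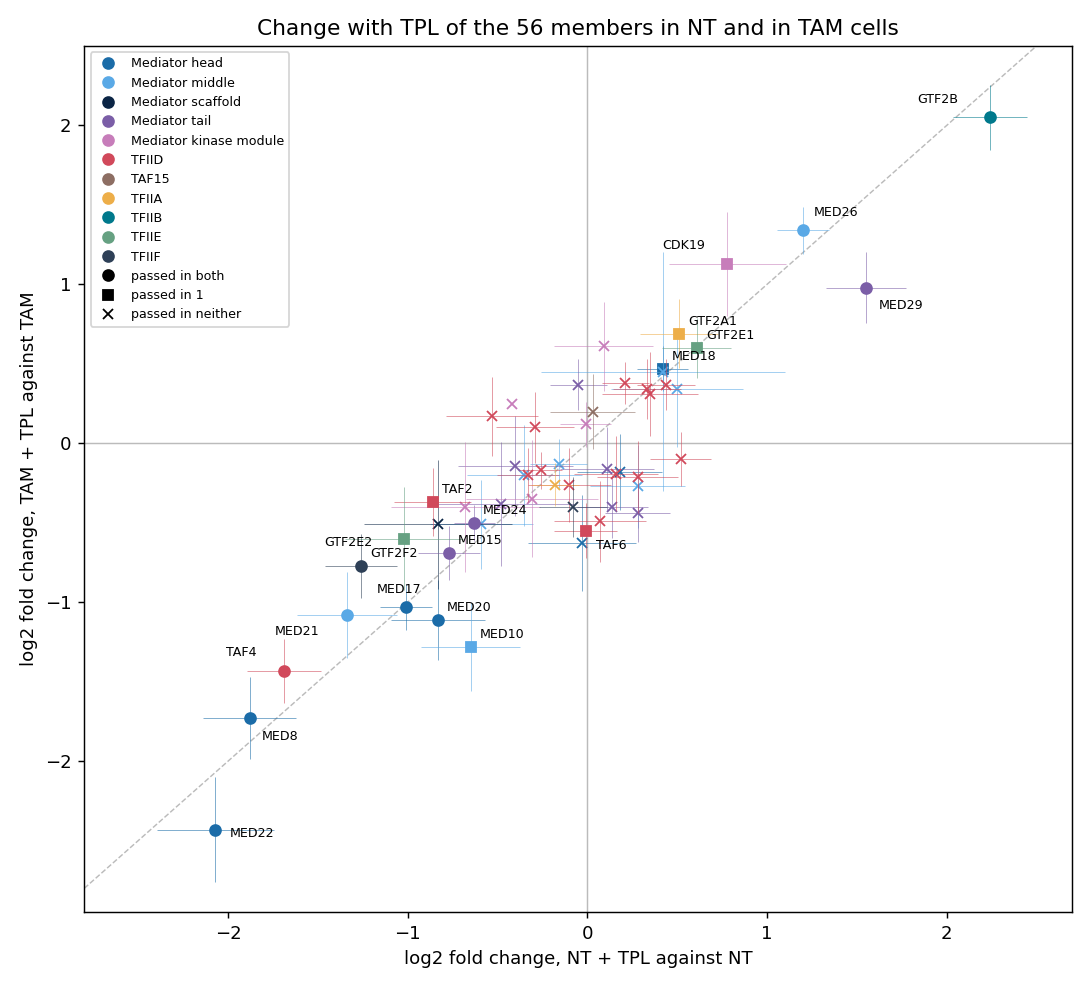
Log2 fold change of each of the 56 members with TPL in NT cells (horizontal axis) and in TAM cells (vertical axis), coloured by complex or module. Bars are standard errors (left out for CDK8, whose SE is over 1), circles passed the test in both cell states, squares in 1 and crosses in neither, and the dashed line marks equal change. GTF2B stands apart at the upper right with 2.24 and 2.05, and MED22 at the lower left with −2.07 and −2.43.

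Among the factors that bind between TFIID and TFIIH, TFIIB stood out. GTF2B, which encodes TFIIB, was at 17.67 and 13.43 FPKM in NT cells, 65.5 and 81.88 with TPL added, 13.58 and 14.34 in TAM cells and 63.02 and 56.62 with TPL added. Each TPL library had a higher level than each DMSO library. With 2 libraries a group, such separation within a cell state was common and does not set a gene apart. In NT cells 36.4% of all genes had both TPL libraries above both DMSO libraries, and 32.7% had both below. In TAM cells 34.7% had both below, and a larger share had both above. On the log2 scale it rose by 2.24 (SE 0.205, adjusted p = 0.000566) in NT and by 2.05 (SE 0.205, adjusted p = 0.000849) in TAM cells, or 4.73-fold and 4.14-fold, and its adjusted p over the alternative fits reached at most 0.00989 and 0.0124.

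Subunits of TFIIE and TFIIF moved in both directions. GTF2E1, the large subunit of TFIIE, was at 7.25 and 6.73 FPKM in NT cells and 10.17 and 11.22 with TPL added, and at 7.69 and 6.18 in TAM cells and 12.0 and 9.7 with TPL added. The TPL libraries lay above the DMSO libraries in both states, with a rise of 0.61 (SE 0.192, adjusted p = 0.0443) in NT cells and a value of 0.60 (SE 0.191, adjusted p = 0.0512) in TAM cells, on opposite sides of the threshold at nearly the same size. It passed in 9 of 22 alternative fits in NT cells and in 12 of 22 in TAM cells. Its partner GTF2E2, the small subunit, fell in NT cells by 1.02 (adjusted p = 0.0464, 10 of 22 fits) and had −0.60 (adjusted p = 0.195) in TAM cells. GTF2F2, the small subunit of TFIIF, fell by 1.26 (adjusted p = 0.00418) and by 0.77 (adjusted p = 0.0265), while GTF2F1, the large subunit, had −0.08 and −0.40 without passing. In TFIIA, GTF2A1 rose in TAM cells by 0.69 (adjusted p = 0.0474, 10 of 22 fits) and had 0.51 (adjusted p = 0.108, 2 of 22 fits) in NT cells, and GTF2A2 had −0.18 and −0.26.

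In TFIID, TAF4 and 1 further subunit in each cell state fell (12.5%) and 0 of 16 rose. Over all genes 17.2% rose and 19.8% fell in NT cells, and 14.3% and 18.6% in TAM cells. The median over TFIID was 0.03 for NT cells and −0.18 for TAM cells. TAF4, a histone-fold subunit that also receives activators, was at 6.22 and 7.91 FPKM in NT cells, 2.55 and 1.85 with TPL added, 8.22 and 7.75 in TAM cells and 2.95 and 3.18 with TPL added. The TPL libraries lay below the DMSO libraries in both states. The fall was 1.69 (SE 0.205, adjusted p = 0.00142) in NT and 1.43 (SE 0.201, adjusted p = 0.00277) in TAM cells. TAF2, a promoter-contacting subunit, fell by 0.86 in NT cells (adjusted p = 0.0208) and had −0.37 in TAM cells (adjusted p = 0.214). TAF6, a histone-fold partner of TAF9, fell by 0.55 in TAM cells (adjusted p = 0.0495), a call that 6 of 22 alternative fits kept, and had −0.01 in NT cells.

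TBP, the TATA-binding subunit, was at 11.61 and 11.09 FPKM in NT cells, 9.93 and 8.22 with TPL added, 12.66 and 15.1 in TAM cells and 12.06 and 12.82 with TPL added. Its groups did not overlap in NT cells and overlapped in TAM cells, and the log2 fold changes of −0.33 (SE 0.172, adjusted p = 0.173) and −0.20 (SE 0.17, adjusted p = 0.384) did not pass. TAF10, TAF9, TAF7 and TAF12, small subunits with a high level, had log2 fold changes between −0.49 and 0.52, and none passed. In alternative fits TAF12 rose in 9 of 22 in NT cells and TAF7 in 6 of 22 in TAM cells. Together 14 of 16 TFIID subunits did not pass in each state. TAF15, an RNA-binding protein found with part of TFIID, had 0.03 and 0.20.

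**Figure D2:**
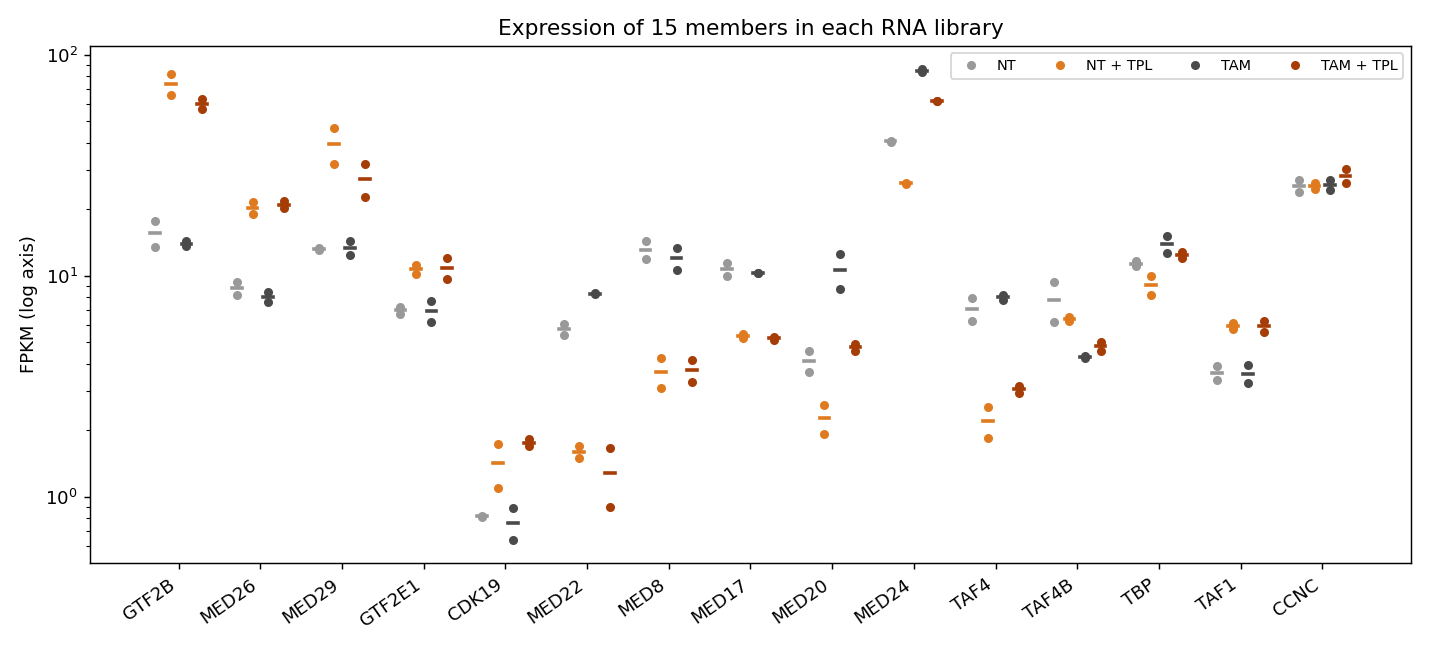
FPKM (log axis) of 15 members in each RNA-Seq library. Dots are libraries, bars are group means, and the 4 columns of a gene are NT, NT + TPL, TAM and TAM + TPL. GTF2B, MED26 and MED29 sit higher and MED22, MED8, MED17 and TAF4 lower in every TPL library than in every DMSO library of the same cell state, while CCNC stays between 23.8 and 30.5 FPKM. Such separation was common over all genes with 2 libraries a group.

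The Mediator head, which contacts RNAPII, held the most members that fell, 4 of 7 in each cell state (MED8, MED17, MED20 and MED22). Its medians were −0.83 in NT and −1.03 in TAM cells. Over all genes 19.8% fell in NT and 18.6% in TAM cells, and the difference between modules was not tested. Scaled by the upper quartile the head count in NT cells was 3, where 15.5% of all genes fell. MED22 was at 6.03 and 5.41 FPKM in NT cells, 1.5 and 1.7 with TPL added, 8.37 and 8.23 in TAM cells and 1.66 and 0.9 with TPL added. Its estimated transcript length, which enters FPKM, ranged from 2652 to 3910 bases between libraries. In the same order its expected counts were 184 and 173, 41 and 39, 258 and 183, and 49 and 29. On the counts MED22 fell by 2.07 (SE 0.327, adjusted p = 0.00385) and by 2.43 (SE 0.33, adjusted p = 0.00246). MED8 moved from 14.37 and 11.85 FPKM to 4.25 and 3.1 in NT, and from 10.6 and 13.37 to 4.16 and 3.32 in TAM cells. These falls were 1.88 (SE 0.26, adjusted p = 0.00235) and 1.73 (SE 0.259, adjusted p = 0.00348).

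MED17, the central subunit of the head, was at 9.95 and 11.39 FPKM in NT cells and 5.43 and 5.23 with TPL added, and at 10.26 and 10.31 in TAM cells and 5.12 and 5.29 with TPL added. It fell by 1.01 (SE 0.146, adjusted p = 0.00283) and 1.03 (SE 0.146, adjusted p = 0.00285). MED20 was at 3.68 and 4.55 FPKM in NT cells, 2.61 and 1.93 with TPL added, 8.68 and 12.49 in TAM cells and 4.57 and 4.92 with TPL added. It fell by 0.83 (SE 0.26, adjusted p = 0.0442) in NT, a call kept in 9 of 22 alternative fits, and by 1.11 (SE 0.251, adjusted p = 0.016) in TAM cells. Of the other head subunits, MED18 had 0.42 (adjusted p = 0.0555, 9 of 22 fits) in NT cells and rose by 0.47 (adjusted p = 0.0423, 13 of 22 fits) in TAM cells, and MED6 and MED11 did not pass.

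In the middle module, MED26 rose while MED21 fell. MED26, the subunit through which elongation factors are brought to Mediator, was at 9.37 and 8.16 FPKM in NT cells, 21.51 and 18.93 with TPL added, 7.57 and 8.41 in TAM cells and 21.68 and 20.23 with TPL added. Every TPL library was above every DMSO library. It rose by 1.2 (SE 0.145, adjusted p = 0.00143) and by 1.34 (SE 0.146, adjusted p = 0.00113). MED21, a core subunit of the middle, fell by 1.34 (adjusted p = 0.0105) and 1.08 (adjusted p = 0.0239). MED10 fell by 1.28 in TAM cells (adjusted p = 0.0139) and had −0.65 (adjusted p = 0.105) in NT cells. MED1, the nuclear receptor-binding subunit, was at 6.34 and 10.78 FPKM in NT cells, 8.32 and 5.27 with TPL added, 10.27 and 6.94 in TAM cells and 7.4 and 8.09 with TPL added. These groups overlapped, and its log2 fold changes were −0.35 (SE 0.319, adjusted p = 0.42) and −0.20 (SE 0.317, adjusted p = 0.65). The other 5 subunits of the middle did not pass, with −0.59 to 0.50 in NT and −0.51 to 0.45 in TAM cells.

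MED14, the scaffold, was at 6.72 and 10.56 FPKM in NT cells, 7.21 and 2.65 with TPL added, 10.54 and 11.35 in TAM cells and 7.59 and 8.3 with TPL added. The NT groups overlapped and the TAM groups did not, and the log2 fold changes were −0.83 (SE 0.413, adjusted p = 0.154) and −0.51 (SE 0.406, adjusted p = 0.361). Without the first NT + TPL library the value in NT cells was −1.67 and passed (adjusted p = 0.00883), a test in which the 1 NT + TPL library left is assumed to vary like those of the other groups.

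In the tail, MED29 rose and MED15 and MED24 fell in both cell states. MED29 was at 13.13 and 13.38 FPKM in NT cells, 46.58 and 31.86 with TPL added, 14.32 and 12.4 in TAM cells and 22.69 and 32.0 with TPL added, with every TPL library above every DMSO library. It rose by 1.55 (SE 0.224, adjusted p = 0.00277) and 0.98 (SE 0.222, adjusted p = 0.0159). In TAM + TPL, RSEM had placed 432.64 reads of the first and 91.44 of the second library under RefSeq accessions of MED29 instead of its gene ID, and with these added the rise in TAM cells was 1.41 (SE 0.19, adjusted p = 0.000201). MED24 moved from 40.59 and 40.43 FPKM to 26.0 and 26.31 in NT, and from 85.65 and 83.28 to 61.41 and 61.86 in TAM cells. It fell by 0.63 (SE 0.114, adjusted p = 0.0064) and 0.50 (SE 0.113, adjusted p = 0.0161), where 17 of 22 alternative fits kept the latter. MED15, which binds many activators, fell by 0.77 (adjusted p = 0.0133) and 0.69 (adjusted p = 0.022), and the other 6 tail subunits did not pass.

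In the kinase module 0 of 6 passed in NT cells, where 17.2% of all genes rose and 19.8% fell. In TAM cells CDK19 alone passed, a rise (16.7% of the 6), where 14.3% of all genes rose and 18.6% fell. CCNC, or cyclin C, was at 23.8 and 27.01 FPKM in NT cells, 26.32 and 24.54 with TPL added, 24.4 and 27.13 in TAM cells and 26.22 and 30.52 with TPL added, with log2 fold changes of −0.01 (SE 0.142, adjusted p = 0.965) and 0.12 (SE 0.141, adjusted p = 0.53). CDK19 was at 0.81 and 0.82 FPKM in NT cells, 1.74 and 1.1 with TPL added, 0.64 and 0.89 in TAM cells and 1.7 and 1.82 with TPL added. It had 0.78 (SE 0.327, adjusted p = 0.103) in NT and rose by 1.13 (SE 0.328, adjusted p = 0.0376) in TAM cells, a call that 10 of 22 alternative fits kept.

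CDK8, the paralogous kinase, could be read only after its entries were added up. Under its gene ID it had 131.16 and 215.0 expected counts in NT cells, 161.0 and 85.0 with TPL added, 151.85 and 0.0 in TAM cells and 87.68 and 86.1 with TPL added, and the 187.0 reads of the second TAM library stood under a RefSeq accession. The sums were 165.0 and 215.0, 161.0 and 85.0, 174.0 and 187.0, and 148.0 and 152.0 expected counts. On the sums the log2 fold changes were −0.56 (SE 0.269, adjusted p = 0.108) in NT and −0.22 (SE 0.267, adjusted p = 0.52) in TAM cells, and by gene ID −0.42 (SE 1.28, adjusted p = 0.815) and 0.25 (SE 1.31, adjusted p = 0.90). MED19 of the middle module had 3.15 to 21.97 counts under its gene ID and 66.62 to 132.49 under an accession. Its sums did not pass with TPL either, at 0.18 (adjusted p = 0.583) and −0.65 (adjusted p = 0.0686).

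MED12 was at 4.16 and 5.68 FPKM in NT cells, 5.67 and 2.41 with TPL added, 5.63 and 4.18 in TAM cells and 3.81 and 4.13 with TPL added, with −0.31 (SE 0.368, adjusted p = 0.539) and −0.35 (SE 0.368, adjusted p = 0.489). MED13, the long linker of the kinase to the rest of Mediator, was at 4.69 and 7.57, 8.16 and 5.04, 5.18 and 5.54, and 7.78 and 9.11 FPKM in the same order. Its paralog MED13L was at 3.27 and 6.23, 4.15 and 1.87, 6.32 and 4.83, and 3.93 and 4.8 FPKM. MED13 had 0.09 (SE 0.278, adjusted p = 0.815) and 0.61 (SE 0.278, adjusted p = 0.135), and MED13L had −0.68 (SE 0.414, adjusted p = 0.232) and −0.40 (SE 0.408, adjusted p = 0.478). The difference between the paralogs was not tested.

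TFIID also has paralogs among its subunits, and the difference between them was not tested either. TAF4B, which can take the place of TAF4, was at 6.17 and 9.37 FPKM in NT cells, 6.21 and 6.53 with TPL added, 4.23 and 4.35 in TAM cells and 4.99 and 4.58 with TPL added. With TPL it had −0.29 (SE 0.218, adjusted p = 0.321) in NT and 0.10 (SE 0.222, adjusted p = 0.748) in TAM cells. In DMSO the mean level of TAF4B was 7.77 FPKM beside 7.065 for TAF4 in NT cells, and in TPL it was 6.37 beside 2.2. In TAM cells it was 4.29 beside 7.985 in DMSO and 4.785 beside 3.065 in TPL. TAF9 was at 66.2 and 62.11, 53.68 and 53.95, 78.15 and 81.61, and 74.1 and 71.61 FPKM, and its paralog TAF9B at 3.39 and 3.21, 4.48 and 3.58, 3.99 and 3.69, and 3.52 and 3.32. TAF9 had −0.26 (SE 0.119, adjusted p = 0.131) and −0.17 (SE 0.118, adjusted p = 0.298) with TPL, and TAF9B 0.28 (SE 0.227, adjusted p = 0.362) and −0.21 (SE 0.226, adjusted p = 0.495).

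Between TAM and NT cells 2 members differed, both of Mediator. In DMSO, MED24 was higher in TAM than in NT cells by 1.07 (SE 0.114, adjusted p = 0.00268) and MED20 by 1.32 (SE 0.253, adjusted p = 0.0266), from the levels given above, and 0 members fell. Over all genes 3.46% rose and 3.39% fell in this comparison. The call of MED20 was lost without either NT library, without either TAM library and without either TAM + TPL library (adjusted p of 0.0537 to 0.182). Scaled to equal GAPDH, which moved the median of all genes to −0.50, neither rise passed (0.60 and 0.84). With this scaling 2 members, MED28 and TAF4B, fell, as did 9.95% of all genes. By the study's thresholds 0 members passed in either direction, where 0.378% of all genes rose and 0.277% fell. With TPL, MED24 was again higher in TAM cells, by 1.2 (SE 0.115, adjusted p = 0.00179), MED20 had 1.03 (adjusted p = 0.0646), and 1 of 56 rose and 0 fell where 2.83% and 4.21% of all genes did (0.36% and 0.236% by the study's thresholds, which 0 members passed). TAF4B had −0.83 (SE 0.221, adjusted p = 0.0788) in TAM against NT cells with DMSO and passed with DESeq2 (−0.81, adjusted p = 0.0131).

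The effect of TPL was not shown to differ between NT and TAM cells for any member. By edgeR's quasi-likelihood test of the difference, 0 of 56 passed, and of 16948 genes 15 (0.0885%) had a higher and 13 (0.0767%) a lower TPL effect in TAM cells. With DESeq2 it was 0 of 56 members, where 275 of all genes had a higher and 244 a lower effect. By the same edgeR test, 2 members had an unadjusted p under 0.05, MED16 (−0.71, SE 0.258) and TAF12 (−0.62, SE 0.24), with adjusted p of 0.403 and 0.445, and so had 852 genes with a higher and 947 with a lower TPL effect in TAM cells. MED16 was at 13.31 and 15.62 FPKM in NT cells, 20.64 and 14.75 with TPL added, 19.19 and 16.78 in TAM cells and 13.03 and 14.46 with TPL added, so its NT groups overlapped. These 2 were picked after their values were seen. For GTF2B the difference was −0.19 (SE 0.281, adjusted p = 0.851), for TAF4 0.26 (SE 0.282, adjusted p = 0.778) and for MED22 −0.36 (SE 0.451, adjusted p = 0.817). With 2 libraries a group, differences of this size have wide errors, and a missed threshold does not show that the states respond alike.

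The level of TAF1, the largest TFIID subunit, depended on the unit. It was at 3.38 and 3.91 FPKM in NT cells and 6.12 and 5.71 with TPL added, and at 3.26 and 3.95 in TAM cells and 6.26 and 5.54 with TPL added, so FPKM was higher in every TPL library. Its expected counts were 178.93 and 235.52, 258.83 and 234.25, 197.53 and 238.22, and 268.2 and 266.23. The log2 fold change of the counts was 0.33 (SE 0.189, adjusted p = 0.208) and 0.34 (SE 0.189, adjusted p = 0.203), while limma on log2(FPKM + 1) gave 0.58 (adjusted p = 0.0303) and 0.59 (adjusted p = 0.0312). RSEM's estimate of its transcript length was 6433 to 7340 bases in the DMSO libraries and 5352 to 5814 in the TPL libraries. TAF1 also shares sequence with its retrocopy TAF1L, and the split of reads between them is uncertain.

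The long mRNAs of the set differed between replicates. MED1, MED14, MED12, MED13 and MED13L were all lower in the first than in the second NT library, and all higher in the first than in the second NT + TPL library. Over the 56 members, Spearman's rho of transcript length with the log2 difference between replicates was −0.50 in NT and 0.44 in NT + TPL, against 0.30 in TAM and 0.03 in TAM + TPL. Over all genes tested it was −0.30, 0.23, 0.15 and −0.03. These genes share their libraries and are not independent, so no p is given. With the log2 fold change, rho over members was −0.03 with TPL in NT and 0.13 in TAM cells. MED12, like MED14, passed in NT cells without the first NT + TPL library (−1.0, adjusted p = 0.037), again with the 1 library left assumed to vary like those of the other groups.

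**Figure D3:**
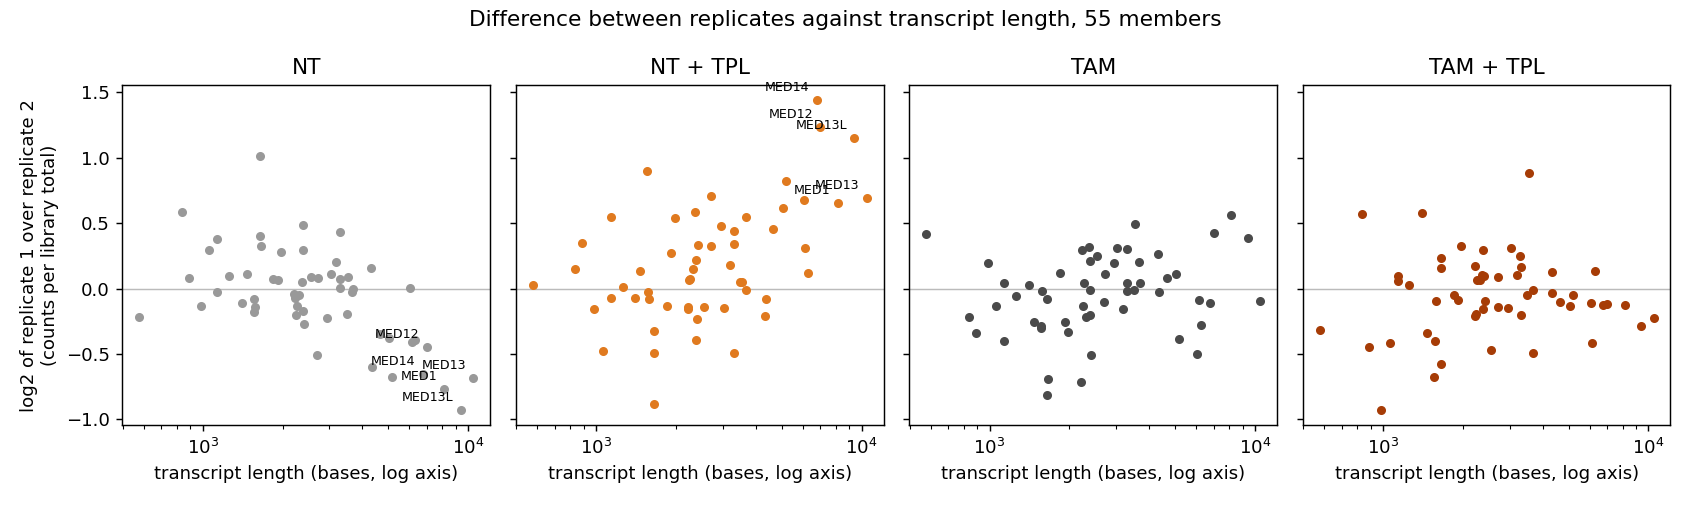
Log2 ratio of replicate 1 to replicate 2, in expected counts per library total, against transcript length (log axis) for 55 members in each group (CDK8 is left out for its 0). Dots are members, and the 5 long Mediator mRNAs are named in NT and NT + TPL. The 5 named mRNAs lie below 0 in NT and above 0 in NT + TPL.

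Summed over members, the levels of the complexes had TPL to DMSO ratios on either side of 1. The Mediator sum was 384.7 ± 10.9 FPKM in NT cells, 361.3 ± 45.4 with TPL added, 437.7 ± 12.2 in TAM cells and 374.9 ± 12.9 with TPL added (mean ± SD, n = 2). The TFIID sum was 383.1 ± 34.1, 383.2 ± 16.2, 474.1 ± 28.0 and 413.5 ± 40.9, of which TAF10 alone made 99.1 to 206.8 FPKM. The 7 subunits of TFIIA, TFIIB, TFIIE and TFIIF summed to 134.1 ± 3.01, 172.2 ± 10.9, 132.1 ± 2.09 and 159.6 ± 9.61. The ratio of TPL to DMSO was 0.939 ± 0.12 in NT and 0.856 ± 0.038 in TAM cells for Mediator, 1.0 ± 0.099 and 0.872 ± 0.1 for TFIID, and 1.28 ± 0.086 and 1.21 ± 0.075 for the last sum (± SD from the 2 libraries a group). GTF2B was the member of the last sum whose level rose most, and the ratios above 1 rested on it. Without GTF2B the rest of that sum was lower with TPL than with DMSO in both states. The median log2 fold change over these 7 subunits was −0.08 in NT and −0.26 in TAM cells. By calls, 21.9% of Mediator subunits fell in NT and 25% in TAM cells, against 12.5% of TFIID subunits in each, where 19.8% and 18.6% of all genes fell. The difference between the complexes was not tested.

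In NT cells 51 of the 53 members with an RNAPII peak at their TSS also had one with TPL. A TSS counts as occupied where it lies within a listed peak, and the TSS is that of the Ensembl canonical transcript on hg19. Of 56 members, 53 had a peak in NT (94.6%, 95% Wilson interval 85.4 to 98.2%) and 53 in NT + TPL, where 67.6% and 54.2% of 13316 protein-coding genes tested did. Of those in NT, 2 were without a peak in NT + TPL (3.8%, interval 1.0 to 12.8%), MED12 and TAF4B, where 22.7% of all genes with a peak were. CDK19 and MED27 had a peak in NT + TPL and none in NT, as had 5.99% of all genes without one in NT. By any annotated TSS in place of the canonical one, CDK19 had a peak in NT as well, and MED27 had not. All 4 lists covered 45 members (80.4%, against 44.8% of all genes). The intervals cover counting error only. These genes are mostly well expressed, and no comparison matched on expression was made. The lists hold no read counts or heights, and whether replicates were pooled is not stated, so no replicate error can be given for them.

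Peaks over the members were wider with TPL in NT cells. Over the 51 members with a peak in both, the median width was 579 bases in NT and 748 in NT + TPL, and 14 (27.5%) were narrower with TPL, where 62.8% of 6953 genes were. The median reach downstream of the TSS was 253 bases in NT and 355 in NT + TPL, and it was shorter in 14 members (27.5%) and in 59.8% of genes. At TBP, on chromosome 6, the peak ran from 170863308 to 170863643 (336 bases) in NT and from 170863127 to 170863890 (764 bases) in NT + TPL. At GTF2B, on chromosome 1, it was 706 and 751 bases wide, at MED29 846 and 1351, and at GTF2E1 283 and 1015. At MED22 it was 2054 and 1202 bases wide, and at MED24 616 and 379. TAF4, whose mRNA fell, had a peak of 656 bases in NT and 815 in NT + TPL, and MED8 one of 728 and 770.

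In TAM cells 46 members (82.1%, interval 70.2 to 90.0%) had a peak with DMSO and 53 with TPL, where 59.7% and 53.1% of all genes did, and 0 of the 46 lost it with TPL (interval 0.0 to 7.7%, against 18.9% of all genes). The TAM list cannot be set directly beside the other 3. Its peak names carry the setting q 0.1 where those of the others carry cutoff 0.02, and 41.5% of its names end in a letter, against 0.0% in the others, so that setting and condition cannot be told apart. Of the 7 members with a peak in NT and none in TAM (MED6, MED9, MED12, MED20, MED30, TAF1 and TAF4), 6 had one in TAM + TPL. These 7 are 13.2% of the 53, against 14.6% of all genes with a peak in NT. With any peak within 1000 bases of the TSS the TAM count was 54. The lists of NT + TPL and TAM + TPL carry the same setting and held 53 members each. MED13 alone had no peak over its TSS in any list, as 28.7% of all genes had not, and had one within 1000 bases in at least 1 list.

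**Figure D4:**
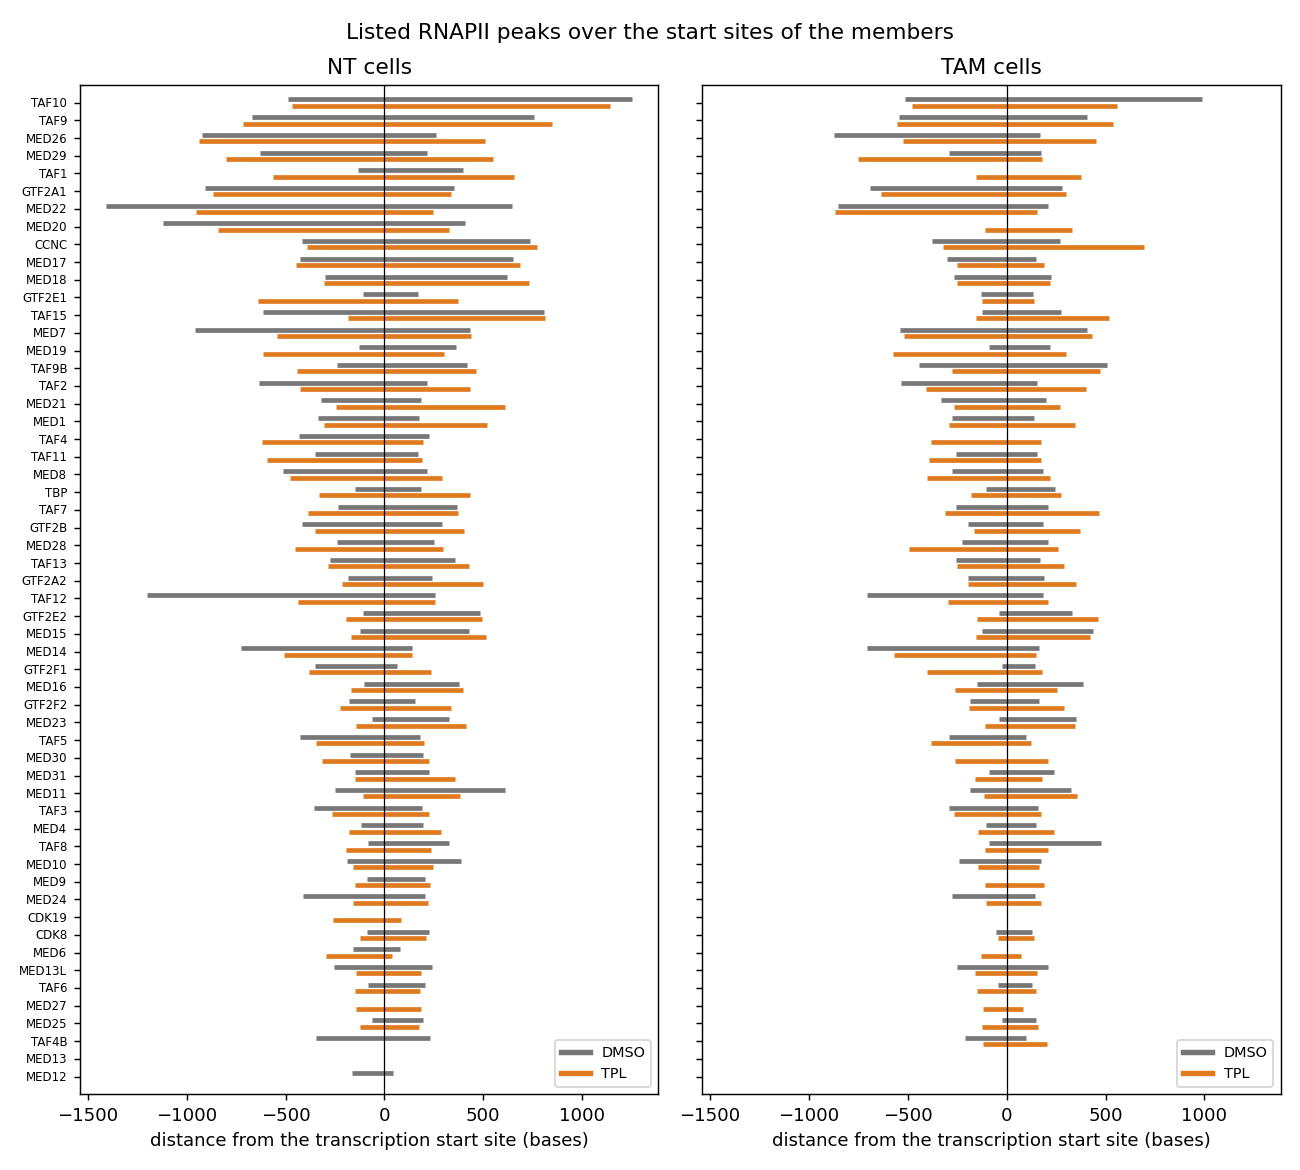
Span of the listed RNAPII peak around the TSS of each member, in bases from the TSS with downstream to the right, for NT cells (left) and TAM cells (right). Grey bars are DMSO and orange bars TPL, members are ordered by peak width in NT + TPL, and a missing bar means no listed peak. In NT cells the orange bar is the longer one for most members, and the grey bars of TAM cells come from a list with another setting.

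Some members share their promoter with a divergent gene, whose TSS lies within 1000 bases on the other strand: 9 of 56 (16.1%, against 12.3% of all genes). A peak there cannot be assigned to either gene. MED22 starts 87 bases from RPL7A, a ribosomal protein gene, and while MED22 fell by 2.07 and 2.43, RPL7A rose by 0.87 (adjusted p = 0.0122) in NT cells and had 0.51 (adjusted p = 0.0774) in TAM cells. MED29 starts 272 bases from PAF1, an elongation factor gene. MED29 rose by 1.55 and 0.98, and PAF1 had −0.52 (adjusted p = 0.0718) and fell by 0.63 (adjusted p = 0.0459). GTF2E1 starts 228 bases from RABL3, which fell by 1.60 (adjusted p = 0.019) in NT cells where GTF2E1 rose by 0.61. MED20 starts 360 bases from BYSL, which had −0.53 and −0.44 without passing. The partners were named for their place and not for their change, and the difference within a pair was not tested.

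The neighbouring factors of the pathway, taken as lists, gave further calls, where 17.2% of all genes rose and 19.8% fell in NT cells and 14.3% and 18.6% in TAM cells. Of 10 TFIIH subunits, 1 rose and 5 fell in NT cells and 0 rose and 4 fell in TAM cells, and ERCC3, which encodes XPB, fell in both (by 0.71, adjusted p = 0.0104, and by 0.53, adjusted p = 0.0322). Of 12 RNAPII subunits, 2 rose and 2 fell in NT and 1 rose and 1 fell in TAM cells, and POLR2A, the largest subunit, rose by 2.39 (adjusted p = 0.00187) and 2.5 (adjusted p = 0.00184). Of 15 subunits of SAGA that are not in TFIID, a coactivator that shares several TAFs, 1 rose and 6 fell in NT and 2 rose and 3 fell in TAM cells. TAF6L, the SAGA paralog of TAF6, fell by 2.57 (adjusted p = 0.00265) and 2.27 (adjusted p = 0.00417). Of 3 regulators of TBP, 1 fell in NT cells, and in TAM cells BTAF1 rose and DR1 and DRAP1 fell. Of 6 tissue variants of initiation factors 3 were tested, and TAF1L rose in NT cells (1.71, adjusted p = 0.0266). None of these genes passed the study's thresholds in the edgeR fit used here. This does not show that they missed them in the study's own analysis. Those named were picked after their values were seen.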

How the data were processed

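RNA-Seq, RNAPII ChIP and input samples were mapped to groups by their labels. There were 18 samples: 8 RNA libraries from independent cultures, 2 per group, 8 ChIP samples and 2 inputs. Expected counts and FPKM per gene were deposited as the authors made them with RSEM, which spreads reads that match several transcripts over them. Peak positions on hg19 were deposited as lists, 1 per group, made by the authors with MACS (1.4.2 in the submitters' processing notes), and the ChIP signal itself was not used.

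Expected counts were rounded and fitted over all 4 groups with edgeR's quasi-likelihood test (edgeR 4.0.16 in R 4.3.3, TMM scaling with factors from 0.975 to 1.03, genes filtered by edgeR's default rule), and p-values were adjusted by Benjamini-Hochberg over 16948 genes. The biological coefficient of variation was 0.315. Depth was 7461309 to 8349448 counts per library. In counts simulated for TPL in NT cells over 16407 genes, 60 of 100 genes with a log2 change of 2 were recovered, 8 of 100 with a log2 change of 1, and 6 others were called. For TPL in TAM cells over 16417 genes the numbers were 68, 9 and 7. Only these genes were changed in the simulation, where 2919 rose and 3355 fell in the data with TPL in NT cells. The adjusted p is stricter with so few changes, so these recoveries do not give those of the fit. Alternatives used DESeq2 1.42.0, limma 3.58.1 on log2(FPKM + 1) or log2(FPKM + 0.1), other scalings and filters, and each library left out. Peak intervals are 95% Wilson intervals.

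Of the listed genes, 21077 matched a gene ID, 2384 a RefSeq accession and 143 neither. Members and lists were chosen with earlier results of these data known. Named genes were those of fixed role (TBP, TAF1, GTF2B, MED1, MED14, the kinase module, the pairs TAF4 and TAF4B, TAF9 and TAF9B) and, per comparison, up to 4 that rose and 4 that fell with the smallest adjusted p, and any member past the study's thresholds. Promoter windows were read from the hg19 genome upstream of the Ensembl canonical TSS. Some items withheld for evaluation are not reported here.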

Additional observations from a re-analysis of the deposited data

Results flagged for a closer look

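Reads of 3 members stood outside their gene IDs, under RefSeq accessions that the comparisons by gene ID do not use. For MED19 such an entry held up to 132.49 expected counts in a library, more than the gene ID in every library. For MED29 one entry held 432.64 counts in the first TAM + TPL library and another 91.44 in the second, and both held 0.0 in the other libraries. For CDK8 the entry held 187.0 counts in the second TAM library, where the gene ID held 0.0.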

How the results depend on the processing

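The counts of members depended on the fit, and so did those of all genes, whose shares under the same fit stand in brackets. Those risen with TPL in NT cells were 7 with DESeq2 (20.9%), 11 with the upper quartile (24.1%) and 8 with at least 10 counts in every library (23.7%). Limma gave 7 at either pseudocount (18.9% and 18.5%). By the study's thresholds 1 rose (1.22%) and 0 fell (2.71%). In TAM cells they were 12 with the upper quartile (21.3%), 3 scaled to GAPDH (9.59%), 3 without a filter (8.82%) and 1 by the study's thresholds (0.844%). There 7 fell with the upper quartile (13.6%) and 0 by the study's thresholds (2.04%). Between TAM and NT cells with DMSO, 5 rose and 1 fell with DESeq2 (6.15% and 6.04%), and 0 and 2 with GAPDH (1.89% and 9.95%). In this comparison 1 fell with at least 10 counts (5.34%) or with summed entries (5.55%), and 0 rose by the study's thresholds (0.378%). With TPL, 3 rose and 1 fell with DESeq2 (6.1% and 7.41%), and 1 fell with GAPDH (5.67%). Another 2 fits, at least 10 counts (4.64% and 7.43%) and summed entries (4.78% and 6.98%), gave 2 risen and 1 fallen. Limma without a filter gave 2 risen (2.23%), and the study's thresholds 0 (0.36%).

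With the library left in its group assumed to vary like the others, leaving out 1 library gave 3 to 5 risen and 6 to 12 fallen in NT cells, 2 to 7 and 4 to 10 in TAM cells, and 1 to 2 risen and 0 to 1 fallen in each comparison of TAM with NT. In NT cells the falls dropped to 6 without the second NT library and to 7 without the second NT + TPL library. In TAM cells the falls were 4 or 5 and the rises 2 or 3 without any one TAM or TAM + TPL library, and the rises were 3 without either NT library. The cause was not tested.

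Same-numbered libraries did not deviate together (r from −0.135 to 0.0501), so the numbers were not taken to pair them. With the replicate block, 3 rose and 9 fell in NT cells, where 14.0% and 17.8% of all genes did. In TAM cells 3 rose and 11 fell, where 11.2% and 16.4% of all genes did. With the numbers of NT + TPL crossed, chosen after seeing the data, the block gave 5 and 11, and 7 and 11. Over all genes it gave 16.2% and 19.6%, and 13.4% and 18.2%.

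Peaks at least 500 bases wide covered 34 members in NT cells, 39 with TPL added, 16 in TAM cells and 30 with TPL added (60.7, 69.6, 28.6 and 53.6%, against 48.1, 35.3, 28.6 and 27.6% of all genes), and 54 had a peak within 1000 bases in TAM. Without GTF2F1, which had the highest level, the summed ratio of TFIIA, TFIIB, TFIIE and TFIIF was 1.46 and 1.44. GTF2B, whose level rose most, was still in that sum. Pearson's r of log2 length with the change was −0.03 and 0.11. For the 23 named genes, 2495 of 2617 values under alternatives kept their side of the threshold, 78 lost and 44 gained a call, and 123 changed sign, all of them values that passed in neither fit. In simulated data with 2 libraries a group, log2 changes near 1 were mostly missed. Far fewer genes were changed there than passed in the data, which makes the adjusted p stricter. How often such changes were missed in the data was therefore not measured. A fit of only the groups compared could not be made for the difference of TPL effects.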
